A study of Caenorhabditis elegans with 9 samples.

Results

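The *C. elegans* chitinase (*cht*) and chitinase-like (*chil*) genes were followed on 9 Affymetrix arrays of RNA from L1 larvae. Members were taken by name: each probe set that is annotated to 1 gene only, with a symbol that begins with *chil-* or *cht-*. This gave 33 probe sets for 31 genes (25 *chil* genes with 25 probe sets, 6 *cht* genes with 8 probe sets) of 22548 probe sets, which name 17118 genes alone. Members were thus selected on their names and not on a level or a change. The gene family was, however, proposed with results of these arrays known, so the numbers of changed members below describe the family and do not test it.

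All animals were wild type N2 Bristol. Parents were fed from the L4 stage at 25 °C on HT115 bacteria that expressed dsRNA of *gfp* (the reference), *let-418* or *mep-1*. Their eggs hatched without food, and the L1 larvae were then fed the same bacteria for 3 h at 25 °C. Each group had 3 arrays, numbered by the batch given in the labels, and each array measured total RNA from a pellet of many whole larvae. The study asked which genes depend on LET-418, a Mi-2 chromatin remodelling ATPase, and on its zinc-finger partner MEP-1.

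The signal of *let-418* itself was 815, 1012 and 917 with *gfp(RNAi)* and 1595, 1479 and 2276 on the *let-418(RNAi)*-labelled arrays (log2 fold change 0.94), and the brighter probe set of *mep-1* gave a mean of 1497 ± 79.0 with *gfp(RNAi)* and 1565 ± 57.5 on the *mep-1(RNAi)*-labelled arrays (SD, n = 3 each). Neither signal was lowered where it was targeted, and the sources used here do not say where the dsRNA lies relative to the probes, so each knockdown array is called only by its label. All values below are MAS5 signals (a linear brightness in arbitrary units) scaled to a common trimmed mean. Signals of different probe sets cannot be ranked as transcript levels, and in whole larvae a difference in the number of cells of a type and a difference in RNA per cell cannot be told apart. Markers of intestine, epidermis, pharynx, body wall muscle, neurons and germline were all measured, and the lowest signal of any of them was 21.7 (*nos-2*).

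Chitin is a polymer of N-acetylglucosamine. In *C. elegans* it is a main component of the eggshell and is also found in the cuticle that lines the pharynx. Chitinases cut the polymer. The *chil* genes encode proteins of the same glycoside hydrolase family, and several of them are known for being switched on in the epidermis when worms meet oomycete pathogens. *chil-27* is commonly used as the reporter of that response.

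Of the 25 *chil* genes, 5 rose on each set of knockdown arrays and 19 were called on neither, and no *cht* gene was called. A probe set was called when limma, fitted to all probe sets, gave a Benjamini-Hochberg adjusted p under 0.05 and a change of at least 2-fold. On the *let-418(RNAi)*-labelled arrays, 5 of 33 family probe sets were higher (*chil-13*, *chil-18*, *chil-20*, *chil-26* and *chil-28*) and 0 were lower, where 6.54% of all probe sets were higher and 2.75% lower. On the *mep-1(RNAi)*-labelled arrays, 5 of 33 were higher (*chil-18*, *chil-20*, *chil-26*, *chil-27* and *chil-28*) and 0 were lower, where 6.78% of all probe sets were higher and 3.3% lower. The comparisons share the *gfp(RNAi)* arrays. In all, 6 genes were called in either comparison and 4 in both. The median log2 fold change of the 33 probe sets was 0.54 and 0.39, beside -0.03 and 0.02 over all probe sets.

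Several of these calls started from very dim controls. The mean *gfp(RNAi)* signal was below 21.1, the 25th percentile of all scaled signals, for 15 of the 31 genes, among them 5 of the 6 called ones (not *chil-13*). Near this floor a small signal difference is a large ratio. When 21.1 was added to each signal before log2, 2 family members stayed called on the *let-418(RNAi)*-labelled arrays (*chil-13* and *chil-18*, both higher, where 4.97% of all probe sets were higher and 1.87% lower) and 3 on those labelled *mep-1(RNAi)* (*chil-18*, *chil-27* and *chil-28*, all higher, where 5.11% of all were higher and 2.24% lower). With this offset the median log2 fold change of the family was 0.30 and 0.27. The calls also shifted when single arrays were left out, which also lowers the number of arrays compared. On the *let-418(RNAi)*-labelled arrays, 2 were called without replicate 1 (*chil-13* and *chil-18*), and 3 without each of *let-418(RNAi)* replicates 2 and 3 and *gfp(RNAi)* replicates 2 and 3. Without *gfp(RNAi)* replicate 3 these included *chil-7*, which was not called in the main fit. On those labelled *mep-1(RNAi)*, 9 were called without *gfp(RNAi)* replicate 1. *chil-18* was called in both comparisons in every one of these fits.

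**Figure D1:**
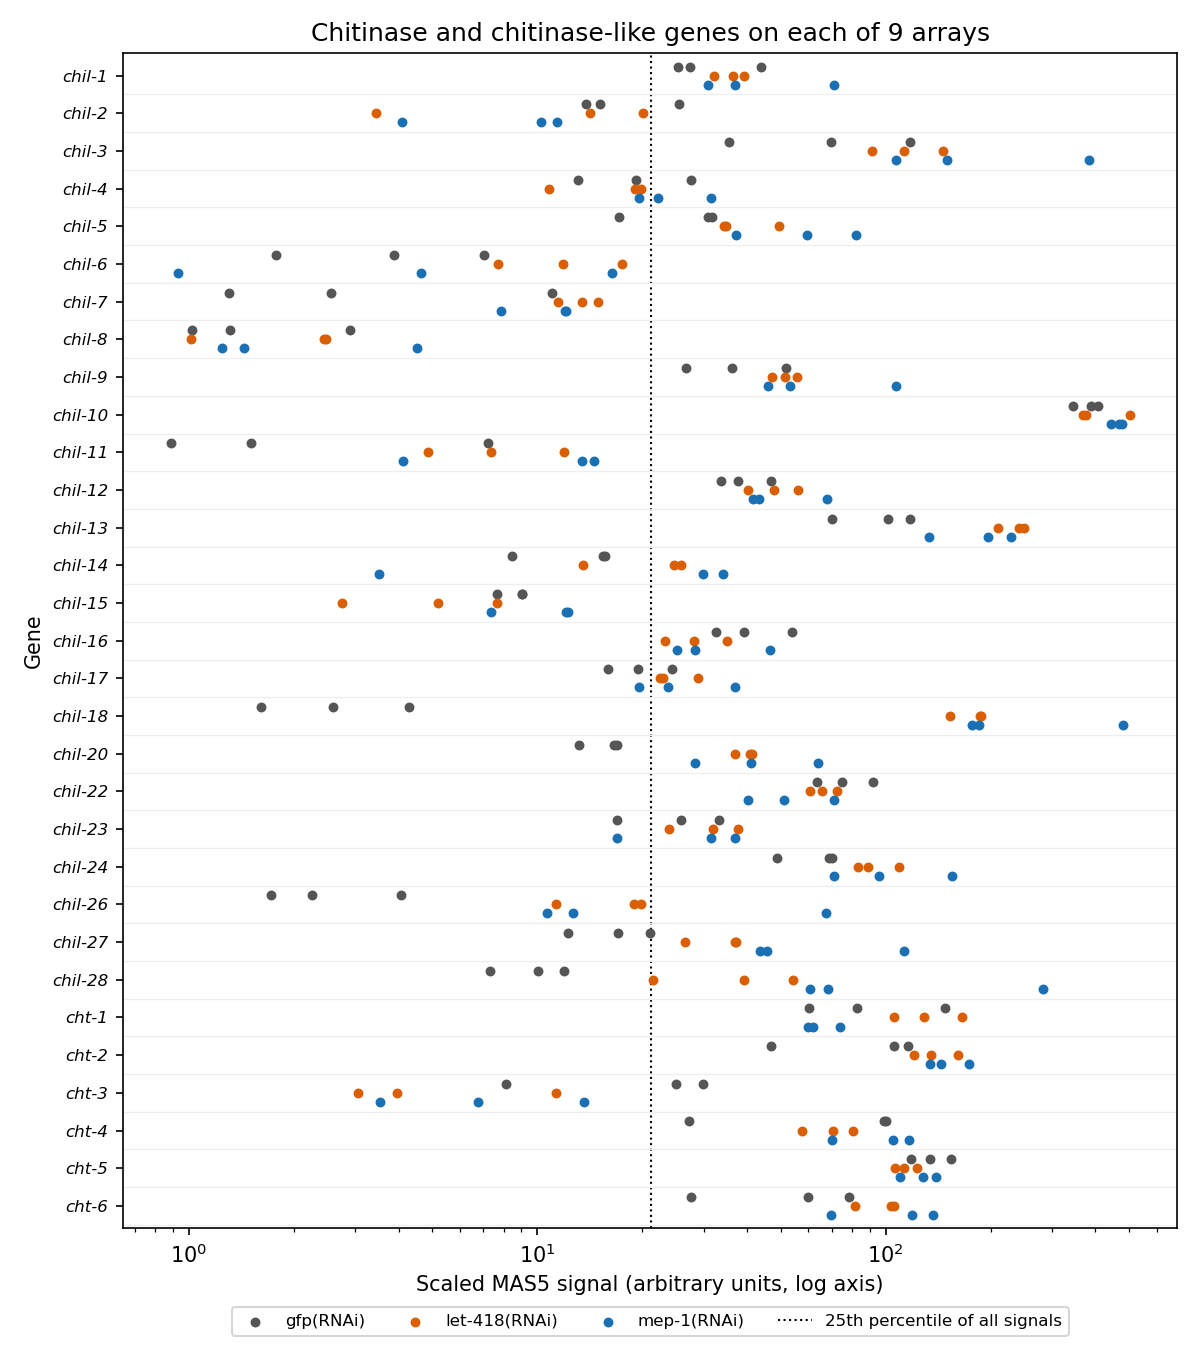
Scaled MAS5 signal of each family gene on a log axis, 1 point per array (grey gfp(RNAi), orange let-418(RNAi), blue mep-1(RNAi)), with the 25th percentile of all signals (21.1) as a dotted line. The 3 control points of chil-18 lie between 1.61 and 4.27 and its 6 knockdown points between 153 and 481, while the 3 groups of most other genes overlap.

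*chil-18* had the largest change of the family in both comparisons. Its signals were 4.27, 1.61 and 2.60 in the *gfp(RNAi)* replicates, 188, 153 and 187 on the *let-418(RNAi)*-labelled arrays, and 186, 177 and 481 on those labelled *mep-1(RNAi)*. All 6 knockdown arrays were far above all 3 controls, and 5 of them lay close together. The log2 fold changes were 6.07 (standard error 0.44, adjusted p = 3.5e-06) and 6.59 (standard error 0.44, adjusted p = 1.5e-06). They were 3.04 (adjusted p = 5.9e-05) and 3.52 (adjusted p = 1.7e-05) with the offset. Because the control signals were at the floor, the size of the ratio is not fixed by these arrays: set against the 25th percentile of all signals in place of its own controls, the geometric mean of *chil-18* was 8.29 and 11.9 times as high. Within the 3 batches its log2 ratio to *gfp(RNAi)* ran from 5.46 to 6.57 and from 5.44 to 7.53.

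The study also measured *chil-18* (clone name R09D1.5, chromosome II) by qRT-PCR. Its primer pair is shown because *chil-18* had the largest change of the family on the arrays. The primers are given as listed in the study, with no base marked.
chil-18 left primer: tttgacaaaatctccatgcaa
chil-18 right primer: ccatatgaataaaagcaaaagacc

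*chil-28*, annotated in RefSeq as a pseudogene, had signals of 10.1, 11.9 and 7.32 with *gfp(RNAi)*. They were 54.3, 39.2 and 21.5 on the *let-418(RNAi)*-labelled arrays and 60.8, 68.2 and 283 on those labelled *mep-1(RNAi)*. The groups did not overlap with the controls, but *mep-1(RNAi)* replicate 3 stood well above its fellows. The log2 fold changes were 1.90 (standard error 0.57, adjusted p = 0.043) and 3.46 (standard error 0.57, adjusted p = 0.0014). With the offset they were 0.91 (adjusted p = 0.19) and 2.08 (adjusted p = 0.0061). The first of these calls was also lost with the batch number as a block (adjusted p = 0.073).

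*chil-26* also had controls far below the 25th percentile of all signals, 1.72, 4.06 and 2.26 with *gfp(RNAi)*. It gave 19.9, 11.3 and 18.9 on the *let-418(RNAi)*-labelled arrays, and 10.7, 12.7 and 67.3 on those labelled *mep-1(RNAi)*. Of these 6 signals only the last was above the 25th percentile of all signals. On the log2 scale the rises of 2.69 (standard error 0.71, adjusted p = 0.024) and 3.06 (standard error 0.71, adjusted p = 0.012) shrank to 0.66 (adjusted p = 0.21) and 0.94 (adjusted p = 0.068) with the offset, and neither call remained.

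*chil-27*, the gene used as reporter of the oomycete response, had control signals of 17.0, 21.1 and 12.3. The *mep-1(RNAi)*-labelled arrays gave 43.5, 45.6 and 113, and those labelled *let-418(RNAi)* 26.5, 37.0 and 37.3. All 6 were above all 3 controls. Only the *mep-1(RNAi)* comparison was called, with a rise of 1.89 on the log2 scale (standard error 0.42, adjusted p = 0.009) and of 1.14 with the offset (adjusted p = 0.012). The *let-418(RNAi)* comparison gave 1.02 (adjusted p = 0.13), and the difference between the knockdowns was 0.87 with a 95% interval from -0.05 to 1.79 (adjusted p = 0.88).

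*chil-20*, the other RefSeq pseudogene of the family on the array, was even across the controls and the *let-418(RNAi)*-labelled arrays. Signals were 16.9, 16.6 and 13.2 with *gfp(RNAi)*, 41.3, 40.8 and 36.8 on the *let-418(RNAi)*-labelled arrays and 41.1, 28.4 and 64.1 on those labelled *mep-1(RNAi)*. The groups again did not overlap with the controls. The log2 fold changes were 1.36 (standard error 0.36, adjusted p = 0.024) and 1.45 (standard error 0.36, adjusted p = 0.016). With the offset they were 0.73 and 0.81, which still passed the adjusted p (0.027 and 0.016) but not the fold limit.

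*chil-13* was the called gene whose controls lay clear of the floor, at 117, 101 and 70.1. It gave 249, 209.6 and 242 on the *let-418(RNAi)*-labelled arrays and 229.5, 133 and 196 on those labelled *mep-1(RNAi)*. Every knockdown array exceeded every control. The log2 fold change was 1.31 (standard error 0.25, adjusted p = 0.0037) for *let-418(RNAi)* and hardly moved with the offset (1.13, adjusted p = 0.0043). With unscaled signals it was 1.24 and was not called (adjusted p = 0.074). For *mep-1(RNAi)* it was 0.95 (adjusted p = 0.022), past the adjusted p and short of 2-fold.

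**Figure D2:**
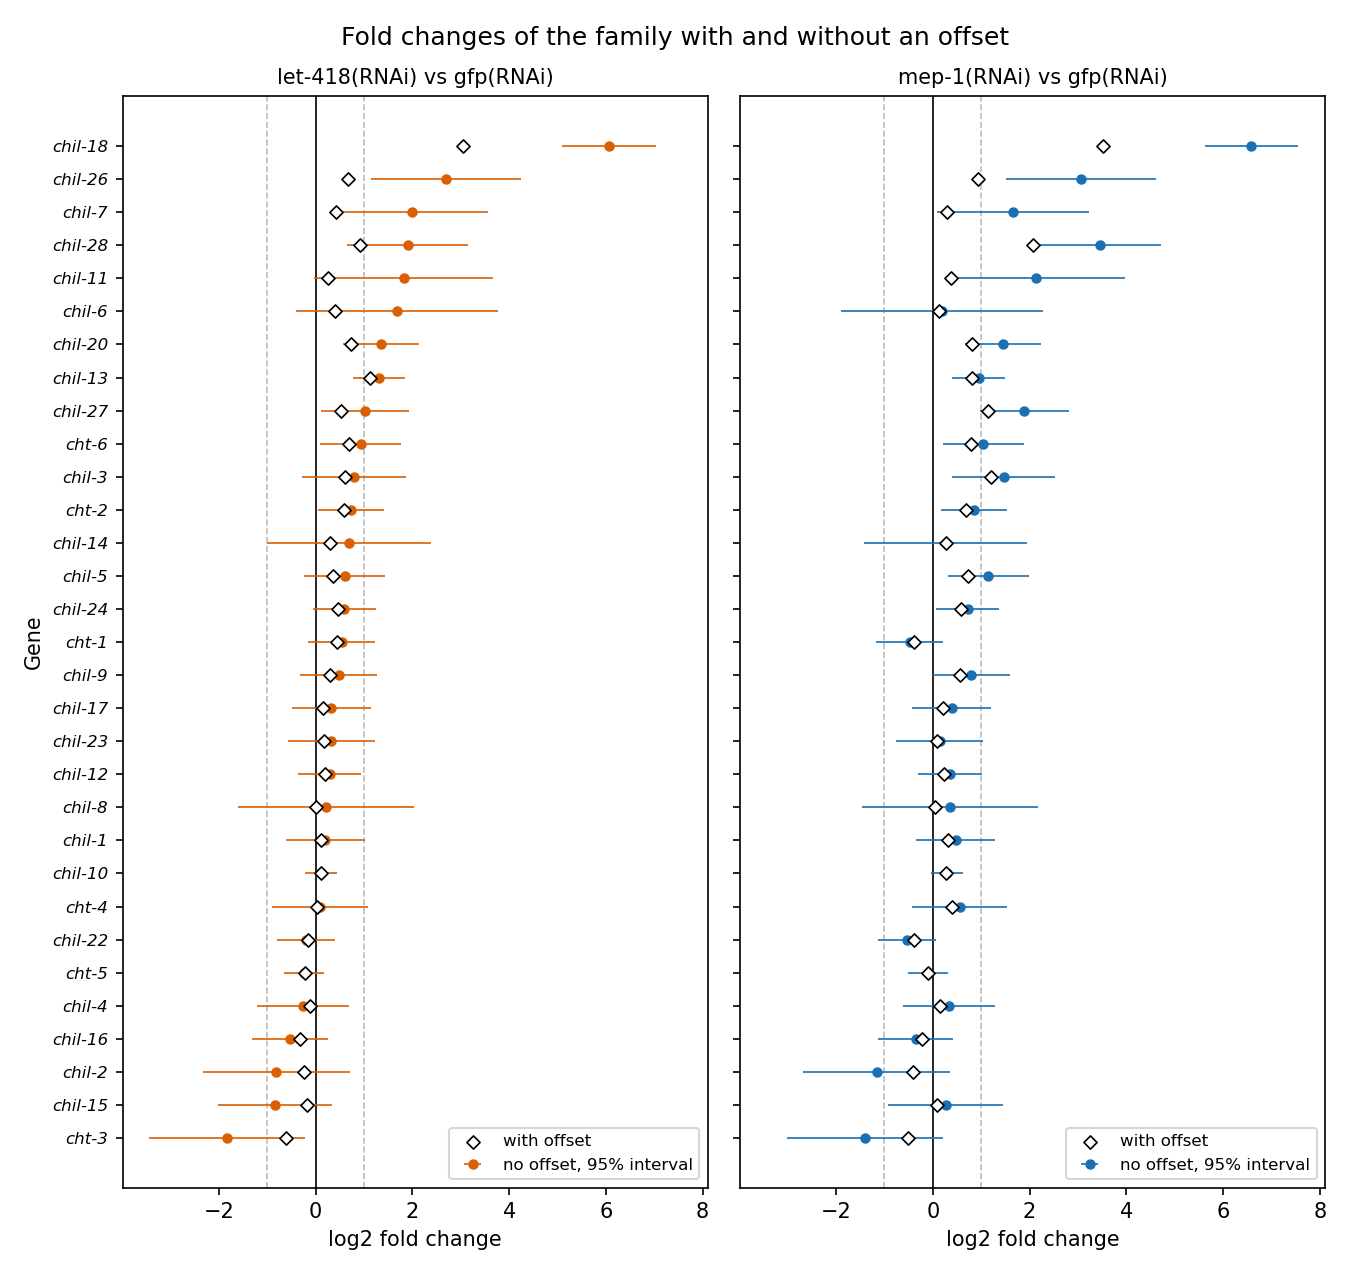
Log2 fold change of each family gene against gfp(RNAi), for let-418(RNAi) on the left and mep-1(RNAi) on the right, with no offset (filled, 95% interval from limma) and with the offset of 21.1 (open diamonds); dashed lines mark 2-fold. chil-18 moves from 6.07 to 3.04 and chil-26 from 2.69 to 0.66 on the left, whereas chil-13 moves only from 1.31 to 1.13.

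One array carried much of the height of the *mep-1(RNAi)* signals. Replicate 3 was the highest of its group for 17 of the 33 family probe sets (51.5%, against 32.4% of all probe sets) and for 15 of the 25 *chil* genes. It was 5.77 times the mean of the other replicates for *chil-26*, 4.38 times for *chil-28*, 2.65 times for *chil-18* and 2.53 times for *chil-27*. Without it, *chil-18* (log2 fold change 6.12), *chil-28* (2.75), *chil-26* (2.21) and *chil-27* (1.44) were still called, *chil-20* was not (1.14, adjusted p = 0.064), and *cht-6* was added (1.34), so that 5 family probe sets were called. With the offset as well, 3 were called, *chil-18*, *chil-28* and *cht-6*.

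The other 19 *chil* genes were called in neither comparison. Their log2 fold changes ran from -0.84 to 1.99 on the *let-418(RNAi)*-labelled arrays (median 0.33) and from -1.16 to 2.12 on those labelled *mep-1(RNAi)* (median 0.35), with smallest adjusted p-values of 0.088 and 0.063. The wide ends of these ranges belonged to dim genes. *chil-7* had 1.31, 2.55 and 11.0 with *gfp(RNAi)*, and its fold change of 1.99 on the *let-418(RNAi)*-labelled arrays was 0.42 with the offset. *chil-11* had 7.24, 1.51 and 0.887, and its fold change of 2.12 on the *mep-1(RNAi)*-labelled arrays was 0.38 with the offset. These 2 genes are named because they gave the ends of the ranges. *chil-10*, on chromosome X, had a signal well above the floor and differed little. It gave 406, 346 and 388 with *gfp(RNAi)*, 368, 377 and 501 on the *let-418(RNAi)*-labelled arrays, and 442, 478 and 468 on those labelled *mep-1(RNAi)*. The log2 fold changes were 0.12 (95% interval -0.22 to 0.45) and 0.29 (95% interval -0.05 to 0.62), so a change of 2-fold lay outside both intervals.

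Counting separation alone gave a wider picture of the family. All 3 *let-418(RNAi)*-labelled arrays lay above all 3 controls for 12 of the 33 probe sets (17.9% of all probe sets did so), and all 3 labelled *mep-1(RNAi)* for 10 (18.6% of all). All 3 lay below the controls for 2 (15.9% of all) and 1 (15.1% of all).

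Of the chitinases proper, *cht-1*, *cht-2* and *cht-5* are given in full and none of the 6 genes was called. *cht-2* had signals of 116, 106 and 46.7 with *gfp(RNAi)*, 135, 161 and 121 on the *let-418(RNAi)*-labelled arrays, and 174, 144 and 134 on those labelled *mep-1(RNAi)*. Its knockdown signals were all above its controls, and it differed from them by 0.73 (adjusted p = 0.15) and 0.85 (adjusted p = 0.090) on the log2 scale. *cht-5*, in its brighter probe set, had 134, 154 and 118, then 113, 106 and 123, then 139, 128 and 109.9, and the groups overlapped (-0.25 and -0.11). Its second probe set gave -0.74 in both comparisons (adjusted p = 0.076 and 0.072), so the 2 probe sets of this gene differed in size and both missed the threshold.

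*cht-1* was lower in the *mep-1(RNAi)* group than in the *let-418(RNAi)* group, but limma did not call this difference. Its brighter probe set read 82.9, 148 and 60.2 with *gfp(RNAi)*, 106, 165 and 129 on the *let-418(RNAi)*-labelled arrays, and 60.0, 73.9 and 61.8 on those labelled *mep-1(RNAi)*. The knockdown groups did not overlap with each other, and the spread-out controls overlapped with both. The share of all probe sets with knockdown groups apart in this way was not counted. The log2 fold changes against *gfp(RNAi)* were 0.54 (adjusted p = 0.31) and -0.48 (adjusted p = 0.36). The difference of *mep-1(RNAi)* from *let-418(RNAi)* was -1.01 (95% interval -1.71 to -0.32, adjusted p = 0.74) in this probe set and -1.29 (95% interval -2.06 to -0.52, adjusted p = 0.63) in the other, which carries the suffix for possible cross-hybridisation. Over the family, limma called 0 of 33 probe sets between the knockdowns (0% of all probe sets were higher and 0.00443% lower), with 3 at an unadjusted p under 0.05 (5.61% of all probe sets were). These were both *cht-1* probe sets and *chil-28*, which was higher by 1.56 (95% interval 0.31 to 2.81, adjusted p = 0.80) on the *mep-1(RNAi)*-labelled arrays. The methods' t-test called 2, both *cht-1* probe sets and both lower (0.169% of all probe sets were), and 0 after Benjamini-Hochberg adjustment.

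The *cht* controls had an uneven array too. *gfp(RNAi)* replicate 3 was the lowest control for 7 of the 8 *cht* probe sets (36.7% of all probe sets). In *cht-4*, for example, it read 27.3 beside 100.3 and 98.8, and in *cht-6* 27.6 beside 78.3 and 59.7. The collagen gene *rol-6* of the epidermis read 1389 there beside 5043 and 4472. Of the other epidermis markers *dpy-7* was also lowest there (1456 beside 2043 and 2493). The brighter probe sets of *elt-3* (762 beside 728 and 860), *lin-26* and *nhr-23* were not lowest there, while their dimmer ones were. *cht-6* differed from the controls by 0.93 (adjusted p = 0.13) and 1.04 (adjusted p = 0.087) on the log2 scale, and by 0.50 and 0.61 without this array. *cht-3* had the lowest fold changes of the family, -1.82 (adjusted p = 0.13) and -1.40 (adjusted p = 0.23), from controls of 8.11, 29.8 and 25.0. Without *gfp(RNAi)* replicate 3, the family calls were *chil-7*, *chil-13* and *chil-18* for *let-418(RNAi)* and *chil-3*, *chil-7*, *chil-18*, *chil-20*, *chil-26*, *chil-27* and *chil-28* for *mep-1(RNAi)*, and no *cht* gene.

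All 6 called genes lie on chromosome II, as do 22 of the 31 measured genes (1 is on III, 2 on IV, 4 on V and 2 on X). By gene order in RefSeq (WBcel235), 2 stretches of chromosome II hold most of the *chil* genes. The stretch from *chil-13* to *chil-27* has 20 genes, of which 13 are *chil* genes and 10 of these were measured. It held 4 of the called genes in each comparison and 5 in either, where 6.54% and 6.78% of all probe sets were higher. In the stretch from *chil-9* to *chil-2*, with 16 genes and 9 *chil* genes, all 9 were measured and 0 were called in the main fit. Some were called for *mep-1(RNAi)* under alternatives. These were *chil-3* and *chil-5* with the dimmest probe sets left out, and *chil-3* with the replicate block. Without *gfp(RNAi)* replicate 3, *chil-3* and *chil-7* were called for *mep-1(RNAi)*, and *chil-7* for *let-418(RNAi)*. The difference between the stretches was not tested, since the members were chosen with the values known.

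The genes on either side of *chil-18* also rose. *R09D1.12*, the next gene in order and not a *chil* gene by name, had signals of 1.64, 3.31 and 1.46 with *gfp(RNAi)*. It had 176, 178 and 166 on the *let-418(RNAi)*-labelled arrays and 298, 229 and 534 on those labelled *mep-1(RNAi)*. All 6 were far above the controls, and *mep-1(RNAi)* replicate 3 was the highest, as for *chil-18*. Its log2 fold changes were 6.44 (adjusted p = 1.0e-06) and 7.38 (adjusted p = 2.8e-07), and 3.06 and 3.93 with the offset. On the other side the pseudogene *R09D1.4* had 10.3, 12.4 and 2.84, then 71.3, 49.0 and 30.1, then 61.9, 51.2 and 90.4. It rose by 2.73 (adjusted p = 0.006) and 3.21 (adjusted p = 0.002), and by 1.24 and 1.58 with the offset. Of the 7 other genes in this stretch 6 were measured, and 3 were higher on the *let-418(RNAi)*-labelled arrays (the third was the pseudogene *R09D1.9*, 1.47, adjusted p = 0.029) and 2 on those labelled *mep-1(RNAi)*. *chil-15*, *chil-16* and *chil-17*, which come before *R09D1.4* and *R09D1.13* in the order, were not called. In the stretch from *chil-9* to *chil-2*, 2 of the 7 other genes were measured and 0 were called. Whether the probes of these neighbours or of similar *chil* genes bind each other's transcripts was not tested, because probe sequences were not used here.

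**Figure D3:**
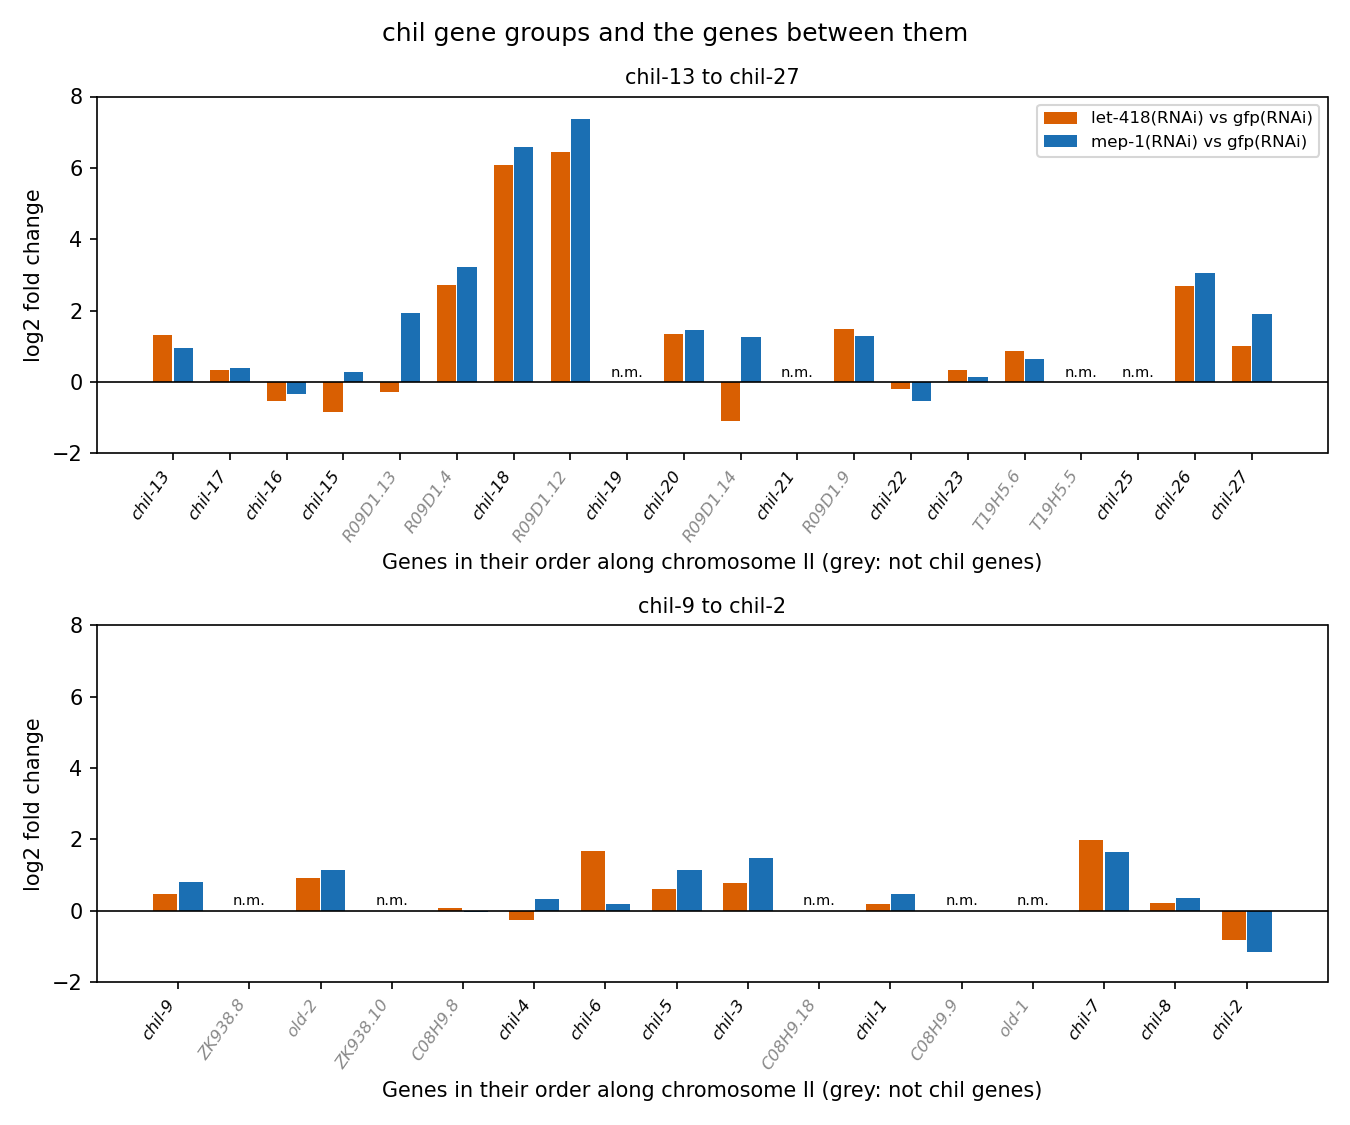
Log2 fold change against gfp(RNAi) (no offset) of each gene in order along the 2 chromosome II stretches, orange for let-418(RNAi) and blue for mep-1(RNAi), with names of genes that are not chil genes in grey and n.m. where no probe set named the gene alone. The 3 tallest pairs of bars of the upper stretch are neighbours (R09D1.4, chil-18 and R09D1.12), and no gene of the lower stretch was called in the main fit.

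The family on the array is not complete. RefSeq lists 34 *cht* and *chil* genes, and 3 were not measured alone: *chil-19* and *chil-21* share a probe set, and none matched *chil-25*. The shared probe set had 30.4, 35.1 and 29.1 with *gfp(RNAi)* and gave -0.44 and -0.73 (adjusted p = 0.54 and 0.25). Another *cht-5* probe set, shared with *C51E3.8*, gave -0.13 and -0.29. Of the 33 probe sets 24 carry the plain suffix. The suffix for a probe set matching several transcripts is carried by 5, among them those of the called genes *chil-13* and *chil-28*. The suffix for possible cross-hybridisation is carried by 4 (*chil-3*, *chil-5*, *chil-9* and a *cht-1* probe set).

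The other genes of chitin synthesis, binding and breakdown were followed with a list of 24 genes. It also held 2 receptor kinase genes of the oomycete response (*old-1* and *flor-1*), which are not chitin genes. Of the list 21 were measured (not *uap-1*, *hex-4* and *old-1*). In each comparison 5 rose and 0 fell, namely *chs-1*, *cbd-1*, *cpg-2*, *hex-5* and *gfat-2*. Of all probe sets 6.54% and 6.78% were higher and 2.75% and 3.3% lower. The list's median log2 fold change was 0.35 and 0.59. *chs-1*, the chitin synthase of the eggshell, had signals of 14.7, 17.6 and 14.2 with *gfp(RNAi)*, 67.5, 67.7 and 60.2 on the *let-418(RNAi)*-labelled arrays, and 81.4, 81.0 and 63.5 on those labelled *mep-1(RNAi)*. It rose by 2.07 (adjusted p = 2.4e-04) and 2.28 (adjusted p = 1.2e-04), and by 1.23 and 1.39 with the offset. *chs-2*, the synthase of the pharynx, had 109.7, 89.0 and 58.4 with *gfp(RNAi)*, 121, 145 and 128 in the *let-418(RNAi)* group and 132, 146 and 102 in the *mep-1(RNAi)* group, and its log2 fold changes of 0.66 and 0.59 were not called (adjusted p = 0.11 and 0.14).

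Among the chitin-binding proteins of the eggshell, *cbd-1* had 63.6, 67.9 and 75.8 with *gfp(RNAi)*, 220.0, 291 and 285 on the *let-418(RNAi)*-labelled arrays and 339.8, 397 and 309 on those labelled *mep-1(RNAi)*. It rose by 1.93 (adjusted p = 2.2e-05) and 2.33 (adjusted p = 4.3e-06). *cpg-2*, an eggshell proteoglycan, had 79.3, 56.7 and 44.9 with *gfp(RNAi)*, 141, 195 and 150.3 in the *let-418(RNAi)* group and 189, 165 and 119.7 in the *mep-1(RNAi)* group. It rose by 1.45 and 1.40 (adjusted p = 0.0028 and 0.0033), and *cpg-1* gave 0.54 (adjusted p = 0.068) and 0.92 (adjusted p = 0.0043), short of 2-fold. Of the groups on the list, 2 of the 3 measured eggshell binding genes were called, against 1 of 2 synthases, 1 of 5 sugar precursor genes (*gfat-2*, which makes glucosamine phosphate), 1 of 4 hexosaminidases (*hex-5*), 0 of 5 LysM domain genes and 0 of 1 deacetylase (*lgx-1*). For the oomycete receptor kinases, 0 of 1 measured gene (*flor-1*) was called. The share of all probe sets called higher was 6.54% and 6.78%. *hex-5* had 65.3, 55.0 and 65.5 with *gfp(RNAi)*, 134, 123 and 163 in the *let-418(RNAi)* group and 138, 166 and 118 in the *mep-1(RNAi)* group, with rises of 1.17 in both comparisons (adjusted p = 0.0027 and 0.0025). *gfat-2* had 48.5, 34.7 and 39.7 with *gfp(RNAi)*, 73.2, 89.7 and 94.3 in the *let-418(RNAi)* group and 74.0, 97.8 and 74.9 in the *mep-1(RNAi)* group, with rises of 1.07 and 1.01 (adjusted p = 0.012 and 0.015). The dimmer probe set of *gfat-2* was not called (0.29 and 0.95, adjusted p = 0.67 and 0.10). In all 3 of *cpg-2*, *hex-5* and *gfat-2* every knockdown array lay above every control. Of all probe sets 17.9% did so on the *let-418(RNAi)*-labelled arrays and 18.6% on those labelled *mep-1(RNAi)*. *hex-1*, another hexosaminidase, had 265, 344 and 366 with *gfp(RNAi)*, 415, 509 and 617 in the *let-418(RNAi)* group and 499, 554 and 561 in the *mep-1(RNAi)* group. It passed the adjusted p (0.027 and 0.014) at 0.66 and 0.74, short of 2-fold. *flor-1*, which encodes a protein needed for the oomycete response that switches on *chil* genes, had 311, 362 and 308 with *gfp(RNAi)*, 204, 199.6 and 252 on the *let-418(RNAi)*-labelled arrays and 185, 219.9 and 230.5 on those labelled *mep-1(RNAi)*. Its log2 fold changes of -0.58 and -0.63 passed the adjusted p (0.031 and 0.021) without reaching 2-fold. With the offset 3 of the list stayed called in each comparison (*chs-1*, *cbd-1* and *cpg-2*), where 4.97% and 5.11% of all probe sets were higher.

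**Figure D4:**
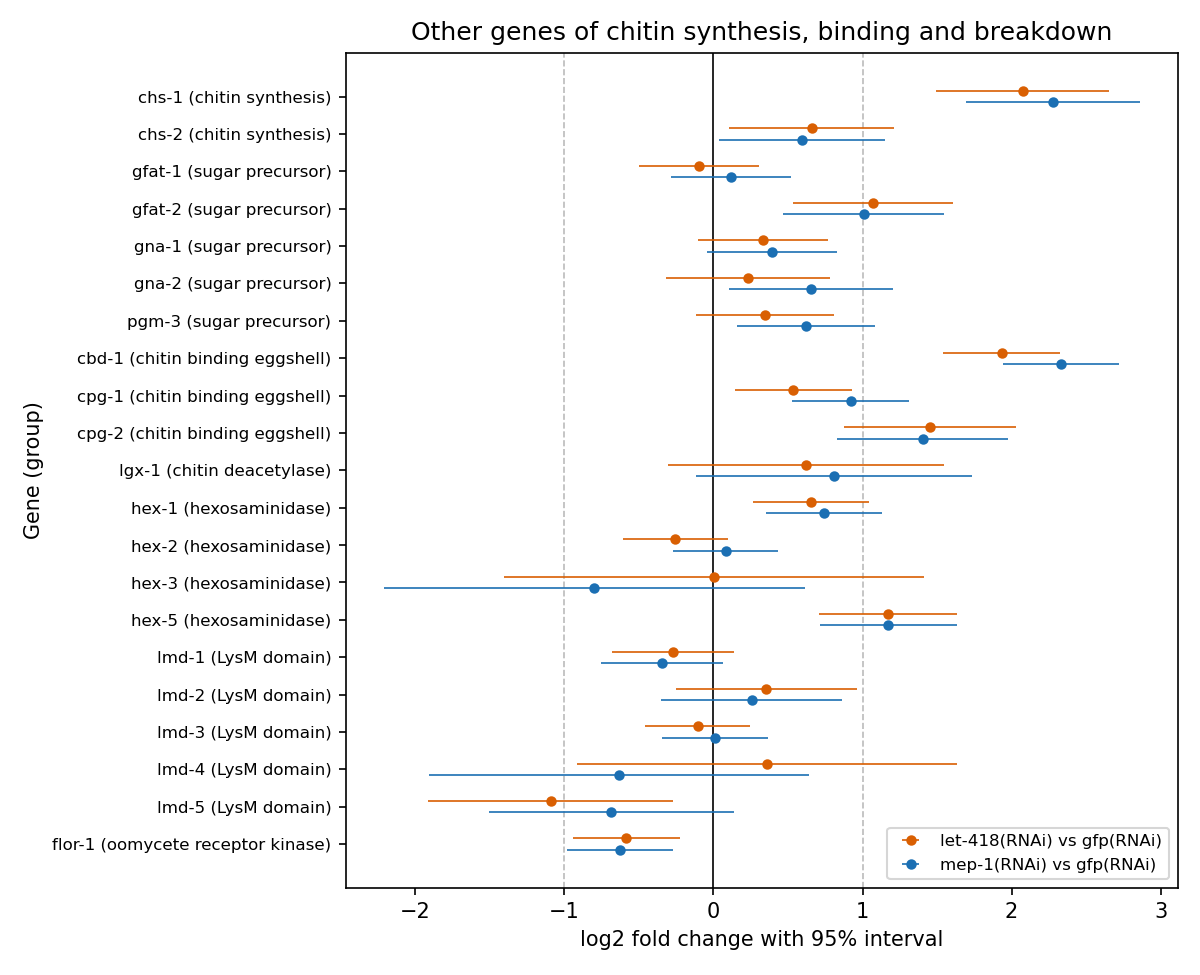
Log2 fold change against gfp(RNAi) with its 95% interval from limma for the 21 measured genes of the chitin list, orange for let-418(RNAi) and blue for mep-1(RNAi). They are genes of chitin synthesis, binding and breakdown, and the oomycete response gene flor-1. Dashed lines mark 2-fold. chs-1 (2.07 and 2.28) and cbd-1 (1.93 and 2.33) stand apart to the right, and flor-1 (-0.58 and -0.63) lies left of 0.

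Genes used as markers of the germline, the tissue that makes the eggshell proteins, moved with these eggshell genes. In these larvae they may not mark that tissue alone. The paper states that germ cells are not yet multiplying at this stage. It reports PGL-1 staining in the soma after either knockdown, and proposes that raised germline genes may be active there. A rise of these markers therefore cannot be read as more germline tissue, and which cells held the RNA was not tested. Of 5 germline markers 4 rose in each comparison (*glh-1*, *htp-3*, *pgl-1* and *pgl-3*), and *nos-2* was not called. Of all probe sets 6.54% and 6.78% were higher. The summed signal of the germline markers was 529 to 571 on the *gfp(RNAi)* arrays, 2904 to 4139 on those labelled *let-418(RNAi)* and 4208 to 4402 on those labelled *mep-1(RNAi)*. A bright gene weighs most in such a sum, and *glh-1* alone read 250 to 290, 2043 to 3121 and 3079 to 3234. Of 5 epidermis markers 0 were called (*elt-3* passed the adjusted p, 0.028 and 0.011, at 0.52 and 0.62, short of 2-fold). For *mep-1(RNAi)* the dimmer probe set of *lin-26* also passed it (0.63, adjusted p = 0.0084), and the brighter one did not (0.29, adjusted p = 0.28). The summed signal of the epidermis markers was 5349 to 9643 in the controls, 10629 to 12577 and 9345 to 12428. In this sum *rol-6* alone read 1389 to 5043, 5561 to 7793 and 4141 to 7406, and it was not called (1.05 and 0.87, adjusted p = 0.12 and 0.19). Of 5 intestine markers 1 rose in each comparison (*elt-2*, 1.25 and 1.39), with sums of 13790 to 15619 in the controls, 11435 to 12797 and 12376 to 14929. Short of 2-fold, the intestine marker *ges-1* was lower by the adjusted p in both comparisons (-0.67 and -0.82, adjusted p = 0.020 and 0.0062) and *act-5* for *let-418(RNAi)* (-0.50, adjusted p = 0.042). In each comparison 0 of 4 pharynx, 0 of 3 body wall muscle and 0 of 4 neuron markers were called, although *pha-4* of the pharynx (0.59, adjusted p = 0.035, for *let-418(RNAi)*, and in its other probe set 0.54, adjusted p = 0.038, for *mep-1(RNAi)*) and *tnc-2* (-0.79, adjusted p = 0.024) and *myo-3* (-0.57, adjusted p = 0.049), both for *mep-1(RNAi)*, passed the adjusted p. The part of these tissues in the changes of the chitinase family and of the eggshell genes was not tested.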

How the data were processed

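The authors summarised each Affymetrix *C. elegans* Genome Array by the MAS5 algorithm in AGCC (versions not given in the sources used here) and deposited 1 linear intensity (MAS5 signal) for each of 22548 probe sets. A global scaling of trimmed means is part of their methods, yet these means differed between the deposited columns. The mean of each array, after removal of 2% of values at either end, was therefore set to 324 (factors 0.743 to 1.55). No array was dropped and 0 columns were unmatched.

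The log2 of these scaled signals, without an offset, was fitted in R 4.3.3 with limma 3.58.1 (lmFit, then eBayes with trend on mean intensity, 3 group means, all 9 arrays, two-sided, Benjamini-Hochberg over all probe sets). Calls needed an adjusted p under 0.05 and 2-fold. The calling was also run on simulated arrays with independent noise. These held no batches and no uneven array, so that run does not show how such features affect the calls. Tables and figures used Python 3.11.15, numpy 2.4.6, pandas 2.3.3 and matplotlib 3.10.9. Where a gene had several probe sets, the one with the highest mean log2 signal stood for it. Genes called against *gfp(RNAi)* and the 5 with the highest *gfp(RNAi)* signal are given in full, as are the called genes of the chitin list with *chs-1*, *chs-2* and *hex-1*. Gene names came from the platform annotation and gene order from RefSeq (WBcel235). The members, the lists and this rule were chosen with earlier results of these data known.

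Batch numbers 1 to 3 in the labels recur in every group, and the study's methods speak of independent batches, so these numbers are taken to pair the arrays. Residuals of arrays of one batch correlated at -0.03 to 0.10 (9 pairs) and those of different batches at -0.14 to 0.10 (18 pairs). Alternatives were quantile normalization, unscaled signals, an offset of 21.1 (the 25th percentile), the replicate block, no fold limit, only the 6 arrays of a comparison, eBayes without the trend, leaving out the dimmest 25% of probe sets, the methods' t-test (p of at most 0.01 and 2-fold), averaging the probe sets of a gene, and each array left out. The number of arrays limits the precision. Each limma p-value weighs a difference of group means against the spread between these arrays, pooled over the groups and moderated by eBayes. The main fit does not use the pairing of batches.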

Additional observations from a re-analysis of the deposited data

How the results depend on the processing

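The number of family probe sets called was 5 in each comparison with *gfp(RNAi)*. For *let-418(RNAi)* it was 2 with unscaled signals, 2 with the offset, 2 with the offset and the replicate block and 2 with the offset and without *mep-1(RNAi)* replicate 3 (these last 2 settings were chosen after seeing the data), and 2 to 5 when each array was left out. For *mep-1(RNAi)* it was 3 with unscaled signals, 3 with the offset, 3 with the offset and without *mep-1(RNAi)* replicate 3, 2 by the methods' t-test, and 5 to 9 when each array was left out. After Benjamini-Hochberg adjustment the t-test passed 3 and 1. Between the knockdowns it was 0, and 2 (both lower) by the methods' t-test, 0 after adjustment. Of the chitin list, 5 genes were called in each comparison. For *let-418(RNAi)* these were 3 with unscaled signals, 3 with the offset, 3 with the offset and the replicate block and 3 with the offset and without *mep-1(RNAi)* replicate 3, and for *mep-1(RNAi)* 2 with unscaled signals, 3 with the offset, 3 with the offset and the replicate block, and 8 (7 higher and 1 lower) with no fold limit. With unscaled signals the calls left were *chil-18* and *chil-26* for *let-418(RNAi)*, and these and *chil-28* for *mep-1(RNAi)*. Without scaling, the whole array shifted, to a median log2 change of -0.10 and -0.27. The replicate block, which uses the pairing of batches, gave 4 and 6 family calls (it lost *chil-28* for *let-418(RNAi)* and added *chil-3* for *mep-1(RNAi)*). On the chitin list it gave 6 (5 higher and 1 lower) and 5. Leaving out the dimmest probe sets also gave 5 higher and 1 lower on this list for *let-418(RNAi)*. The list's lowest fold change for *let-418(RNAi)* was that of *lmd-5*, -1.09, not called in the main fit (adjusted p = 0.075). The log2 fold change of *chil-10* for *let-418(RNAi)*, 0.12, reversed to -0.025 without *let-418(RNAi)* replicate 3 (adjusted p = 0.95) and was at most 0.20 with any other array left out. *chil-18* stayed called in both comparisons under every alternative run, with log2 fold changes of 3.04 to 6.42 and 3.08 to 6.94. Beyond the offset's own construction, the cause of these shifts was not tested. Signals below the 25th percentile limit what can be said of the dim *chil* genes.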
